A study of Mus musculus with 55 samples.

Results

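Pck1, G6pc, Ppargc1a, Tat, Igfbp1, Fgf21, Angptl4, Pdk4 and Txnip are genes whose liver transcripts change between feeding and fasting. The 9 genes were chosen by name, out of 37620 genes in the expression tables, and their expression was followed across mice and across lines. The livers came from 55 naive male mice of 29 Collaborative Cross (CC) lines. CC lines are recombinant inbred lines that each carry a mixture of the genomes of 8 founder strains, so that mice of a line are close to genetically identical. There were 5 lines with 3 mice, 16 lines with 2 mice and 8 lines with 1 mouse. Mice were 8.0 to 11.9 weeks old and weighed 12.8 to 38.0 g, and line mates had the same age in every line with mates but IL-785. Chow and water were always available under a 12-hour light and dark cycle, and no treatment was given. Neither the hour of dissection, nor the last meal, nor a batch of extraction or sequencing is given in the labels. Every comparison below is therefore of mice that were nominally fed freely. In whole liver, fewer cells of a type and less RNA per cell cannot be told apart.

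In a fasted liver, glucagon, glucocorticoids and low insulin act on the promoters of gluconeogenic genes through CREB, the glucocorticoid receptor and FoxO factors, and fatty acids act through PPAR-alpha. Feeding reverses these signals through insulin and glucose. Several of the same genes are also under the circadian clock, so that liver expression of this group normally follows the time of day as well as the meal.

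Several libraries stood apart. The 5 mice of IL-1052 and IL-2750 each resembled a mouse of the other line more than any mate, and these 2 lines were left out of the main fits. In the other lines, 41 of 42 mice with mates were nearest to a mate, and the exception was mouse 2 of IL-3912 (r = 0.952 with its mate and 0.959 with a mouse of IL-4052). Depth was 20.5 to 34.0 M fragments per mouse, and no pair of libraries was identical. Hepatocyte markers summed to at least 17400 FPKM (fragments scaled to transcript length and to the depth of the library) in every mouse. Of 5 skeletal muscle markers, 4 had a median of 0 FPKM, but their sum reached 1440 FPKM in mouse 1 of IL-3912, 66.9 FPKM in mouse 1 of IL-785 and 65.0 FPKM in mouse 2 of IL-785. Exocrine pancreas markers reached 461 FPKM in mouse 2 of IL-3575. Mouse 3 of IL-785 had 39.5 FPKM of Xist beside 12.6 FPKM of the Y-linked Ddx3y, whereas Xist was at most 0.12 FPKM in the other mice.

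On NCBI build 37 the members lie on 8 chromosomes, and all are annotated as protein-coding. Pck1 is at chr2:172978549-172984774, Tat at chr8:112514337-112523703 and Igfbp1 at chr11:7097785-7102549, all on the plus strand. G6pc lies on the same chromosome as Igfbp1, at chr11:101228875-101239217. The promoters of Pck1, Tat and Igfbp1 are printed because Pck1 and Tat were the pair that moved together most closely, and Igfbp1 had the largest SD between lines on the log2(FPKM + 1) scale. As a ratio of the top line mean over the bottom line mean, Fgf21 was wider, at 499, than Igfbp1, at 85.8. The bottom line of Fgf21, IL-2689, was however a single mouse with 0.05 FPKM from 1 fragment. Each is the 250 bases before the RefSeq start on GRCm38.p6, which is not the build of the expression files. Capitals mark matches on either strand to the first 5 letters of the cyclic AMP response element (TGACG), a FoxO site (TGTTTAC), an insulin response sequence (TGTTTTG), the 6-letter glucocorticoid receptor site (AGAACA), an E-box (CACGTG) or a TATA box (TATAAA).
Pck1, chr2:173152823-173153072, plus strand: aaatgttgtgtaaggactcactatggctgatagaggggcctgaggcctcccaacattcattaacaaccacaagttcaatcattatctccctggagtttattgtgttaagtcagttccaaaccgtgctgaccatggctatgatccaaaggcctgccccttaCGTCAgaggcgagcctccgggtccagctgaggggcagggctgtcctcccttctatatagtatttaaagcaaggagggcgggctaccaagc
Tat, chr8:109990186-109990435, plus strand: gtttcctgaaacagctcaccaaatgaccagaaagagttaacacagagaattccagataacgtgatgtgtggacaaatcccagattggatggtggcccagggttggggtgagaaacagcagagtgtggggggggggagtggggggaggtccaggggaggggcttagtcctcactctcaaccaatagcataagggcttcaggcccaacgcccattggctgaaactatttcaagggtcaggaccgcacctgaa
Igfbp1, chr11:7197537-7197786, plus strand: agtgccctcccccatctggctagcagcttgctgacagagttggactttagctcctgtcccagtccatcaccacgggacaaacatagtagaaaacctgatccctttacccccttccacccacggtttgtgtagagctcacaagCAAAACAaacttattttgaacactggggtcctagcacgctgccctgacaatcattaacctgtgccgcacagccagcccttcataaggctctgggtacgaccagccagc

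The Pck1 window held TGACG on the minus strand, 90 to 86 bases before the start, as 17.9% of all 27025 RefSeq promoter windows did. The Igfbp1 window held TGTTTTG on the minus strand, 108 to 102 bases before the start, as 5.55% of all windows did. None of the motifs was in the Tat window. Promoters of 8 of the 9 members were in the table, all but that of Angptl4, and in the Txnip window TGTTTAC was found on the minus strand, as in 3.09% of all windows. These matches describe letters in a window and were not compared with expression.

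The gluconeogenic enzymes were among the abundant transcripts and differed several-fold between lines. Pck1, the cytosolic phosphoenolpyruvate carboxykinase that opens gluconeogenesis, had 151 FPKM in its lowest mouse, a median of 741 FPKM and 1536 FPKM in its highest mouse. Its levels were highest in IL-2680, with 1536 and 1274 FPKM in the 2 mice. They were lowest in IL-3438, with 201 and 151 FPKM, and in IL-4457, with 181 and 178 FPKM. These low lines did not overlap with IL-2680, but neighbours in the order of the 27 lines were close, and only 2 of the 26 gaps between neighbouring line means exceeded the within-line SD. G6pc, the catalytic subunit of glucose-6-phosphatase that releases free glucose, ranged from 45.8 to 826 FPKM with a median of 166 FPKM. The 2 mice of IL-1513 had 826 and 786 FPKM of G6pc, above every other mouse. IL-521 held the widest pair of mates, with 189 and 651 FPKM of G6pc.

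Ppargc1a and Tat were also highest in IL-1513. Ppargc1a encodes PGC-1alpha, a coactivator of gluconeogenic and mitochondrial genes, and was low in all mice, between 0.49 and 3.88 FPKM with a median of 1.06 FPKM. The IL-1513 mice had 3.23 and 3.88 FPKM of Ppargc1a, and the next highest mouse was from IL-2680, with 2.58 FPKM. Tat, tyrosine aminotransferase, is a classical glucocorticoid-induced enzyme of amino acid breakdown. Its median was 543 FPKM. The IL-1513 mice had 1864 and 1743 FPKM of Tat, the IL-2680 mice 1514 and 1105 FPKM, and the IL-4457 mice a mean of 125 FPKM. The first 2 lines were thus separated from IL-4457 by all their mice, while no gap between neighbouring line means exceeded the within-line SD for Tat.

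Igfbp1, a secreted binding protein of insulin-like growth factors that insulin represses, spanned the widest range of the abundant members. Its lowest mouse had 3.27 FPKM, its median was 29.9 FPKM and its highest mouse had 812 FPKM. The IL-1513 mice had 812 and 579 FPKM, the IL-4457 mice 429 and 402 FPKM, and the single IL-2126 mouse 469 FPKM. IL-4457 therefore combined some of the highest Igfbp1 levels with nearly the lowest Pck1 levels and the lowest line mean of Tat, whereas IL-1513 was high in Igfbp1, G6pc and Tat together. In the IL-2126 mouse, 469 FPKM of Igfbp1 stood beside the lowest line mean of G6pc, 58.5 FPKM, and the lowest level of Txnip, 4.96 FPKM.

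Fgf21, a liver hormone of prolonged fasting and of amino acid stress, was low in most livers. Its lowest mouse, from IL-2689, had 0.05 FPKM from 1 fragment, its median was 1.23 FPKM, and its highest mouse, mouse 2 of IL-3912, had 41.0 FPKM from 1064 fragments. The mate of that mouse had 8.91 FPKM. In IL-785 the 3 mice had 1.63, 22.7 and 1.16 FPKM of Fgf21. In IL-785 the high value was in 1 mouse and not in its mates, while both IL-3912 mice were above the median.

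Angptl4 and Pdk4 are targets of PPAR-alpha that spare glucose, through inhibition of lipoprotein lipase and of pyruvate dehydrogenase. Angptl4 ranged from 5.19 to 119 FPKM with a median of 37.3 FPKM. It was highest in the IL-4141 mouse, with 119 FPKM, and in the IL-3912 mice, with 116 and 113 FPKM. In IL-3575 the mates had 31.8 and 5.19 FPKM, and the lower value was from the mouse with pancreas markers. Pdk4 was between 0.09 and 9.71 FPKM with a median of 1.45 FPKM. The IL-2146 mice had 0.09 and 0.11 FPKM of Pdk4, below all other mice, and the IL-72 mice had 6.59 and 5.16 FPKM. The highest single mouse, with 9.71 FPKM, was from IL-1052, a line whose labels are in doubt. Txnip, which restrains glucose uptake and is induced by glucose, had a median of 16.2 FPKM. The IL-3912 mice had 95.5 and 101 FPKM of Txnip, above every other mouse by a wide margin, since the next highest mouse had 53.5 FPKM. Muscle markers summed to 1440 FPKM in the first of these mice and to 0.40 FPKM in the second, which had the highest sum of lymphocyte markers, 9.89 FPKM beside a median of 0.8 FPKM. The part of other cells in the Txnip level was not tested.

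**Figure D1:**
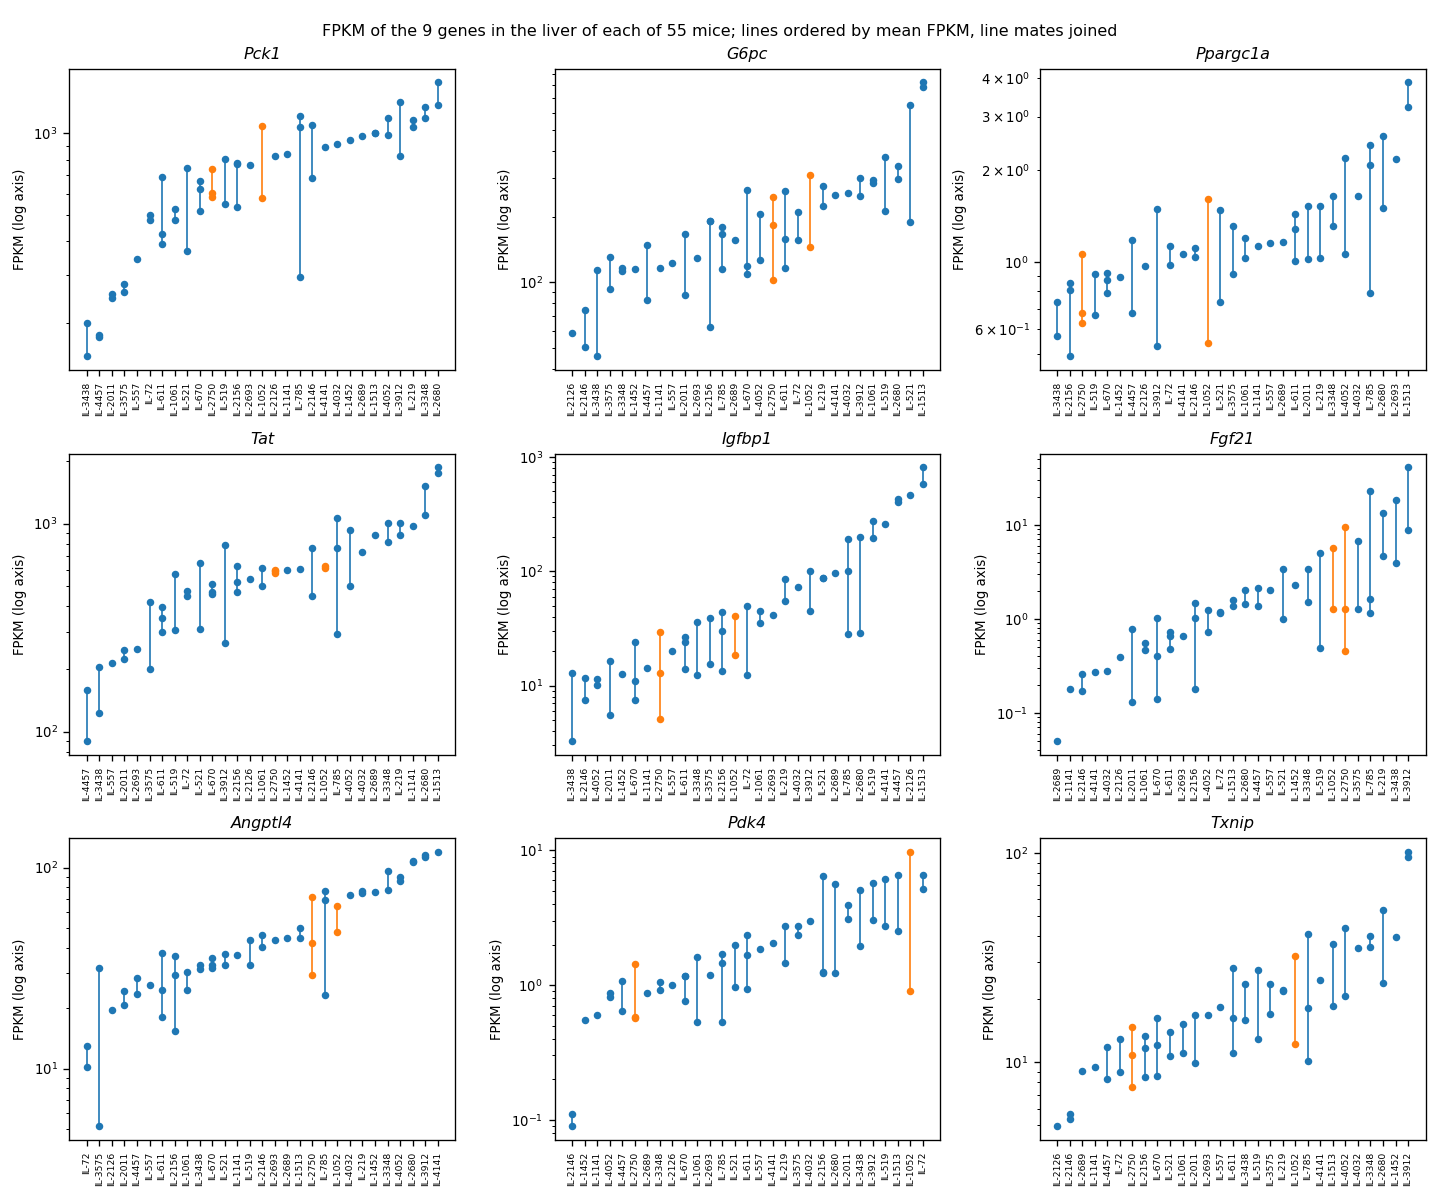
FPKM (log axis) of each of the 9 genes in all 55 mice, with 1 column per line ordered by mean FPKM and line mates joined by a vertical bar. Orange marks IL-1052 and IL-2750, whose mice were intermixed by expression. Igfbp1 ran from 3.27 FPKM in the lowest mouse to 812 FPKM in the highest, and line mates of Fgf21 and Pdk4 often spanned much of the range.

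Line mates were compared to ask how far genotype, or whatever else line mates shared, accounted for the spread. The ratio of the highest to the lowest mate, taken over 19 lines, had a median of 1.17 for Angptl4, 1.21 for Pck1, 1.37 for Tat, 1.44 for Ppargc1a, 1.48 for Txnip, 1.57 for G6pc, 1.89 for Pdk4, 2.23 for Igfbp1 and 2.87 for Fgf21. Mates differed more than 2-fold in 11 of 19 lines for Fgf21 and in 10 of 19 lines for Igfbp1, against 2 of 19 lines for Pck1. For Pck1, Ppargc1a, Fgf21, Txnip and Tat, the widest ratio was in IL-785. The IL-785 mates were numbered 4272, 4434 and 4477 and were 8.1, 8.3 and 9.0 weeks old, and the part of this was not tested. The largest such ratio of Igfbp1 was 6.99, in IL-2680, where the mice had 200 and 28.6 FPKM.

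The intraclass correlation (ICC), the share of the variance that lay between lines, was computed on log2(FPKM + 1) in 50 mice of 27 lines. It was 0.775 for Igfbp1 (jackknife SE over mice, 0.0968), 0.754 for Pck1 (SE 0.16), 0.70 for Tat (SE 0.14), 0.694 for Angptl4 (SE 0.205) and 0.676 for Txnip (SE 0.147). It was lower for G6pc, at 0.585 (SE 0.175), Pdk4, at 0.475 (SE 0.211), Ppargc1a, at 0.462 (SE 0.274), and Fgf21, at 0.45 (SE 0.228). These SEs come from leaving out mice, not lines, and do not measure the spread over another draw of lines. The median over the 9 members was 0.676, beside 0.633 over all genes tested, so the members were not unusual in the share of their variance between lines. Their spread among mates was wide, however. The median within-line SD was 0.523 for the members on the log2(FPKM + 1) scale and 0.148 for all genes, and each member exceeded between 85.9% and 99.2% of genes. On this scale the added 1 narrows the spread of genes with low FPKM, and the members were not compared with genes of like level. Without mouse 1 of IL-3575, the ICC of Angptl4 was 0.831. Without mouse 2 of IL-785, the ICC of Pck1 was 0.885 and that of Fgf21 was 0.605. On FPKM without a logarithm, the ICC of Fgf21 was 0.126 and that of Igfbp1 was 0.904.

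**Figure D2:**
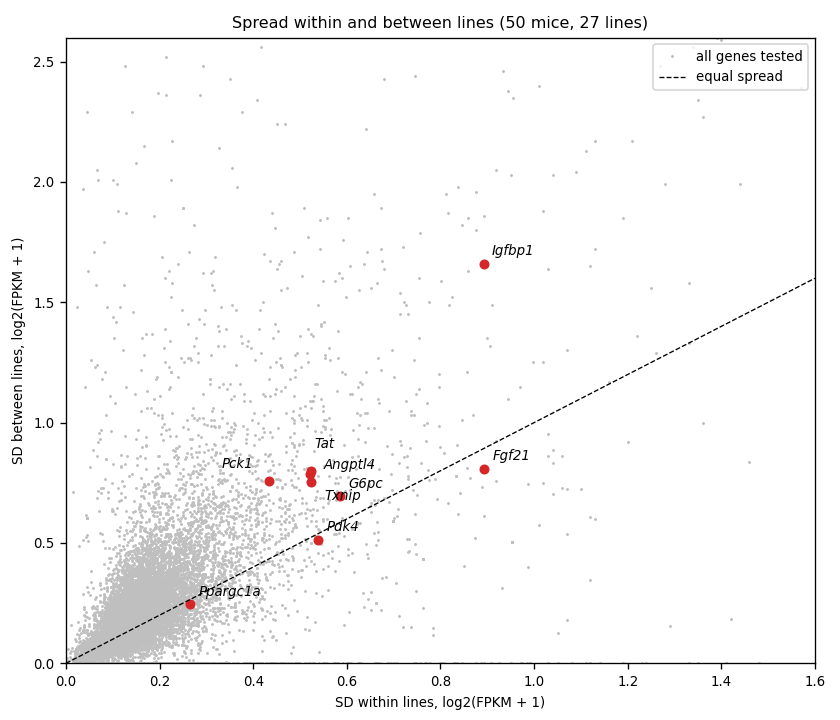
SD between lines against SD within lines, both on log2(FPKM + 1), for all genes tested (grey) and the 9 members (red), from 50 mice of 27 lines. The dashed line marks equal spread, and 56 genes lie outside the axes. The members lie to the right of most genes, with Igfbp1 (0.892 within, 1.66 between) and Fgf21 (0.893 within, 0.809 between) farthest out.

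All 9 members differed among lines in a test over the 42 mice of the 19 lines with mates, as did 89.1% of the 15249 genes tested (edgeR quasi-likelihood F test). Adjusted p-values ran from 1.32e-07 for Igfbp1 and 3.61e-06 for Pck1 to 0.000573 for Ppargc1a. A call here is the rule rather than the exception among liver genes of these lines. No member lost its call when any of the 42 mice was left out, and the highest adjusted p was then 0.00575, for Ppargc1a without mouse 2 of IL-1513. Of the other genes of these pathways, 21 of 22 in gluconeogenesis and its signalling, 20 of 21 in fatty acid oxidation and ketogenesis, and 20 of 20 in lipogenesis were called, near the share among all genes.

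The members did not form a single block. Over the 36 pairs, the median Pearson r of deviations from the line mean was 0.122 (42 mice), with 24 pairs positive, and that of line means was 0.298 (27 lines), with 28 pairs positive. The points of a pair of genes share the same libraries and depth, and mates in lines of 2 mirror each other, so that 42 mice give 23 free deviations. Pck1 and Tat were the closest pair on both levels, with r = 0.74 (Spearman rho = 0.667) among mates and r = 0.862 (rho = 0.839) among lines. Without the 2 points farthest from the median of Pck1, r was 0.682 and 0.78. The most opposed pair was Fgf21 and Tat among mates, with r = -0.724 (rho = -0.715, and r = -0.648 without the 2 farthest points). The line means of Fgf21 and Tat had r = -0.163.

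**Figure D3:**
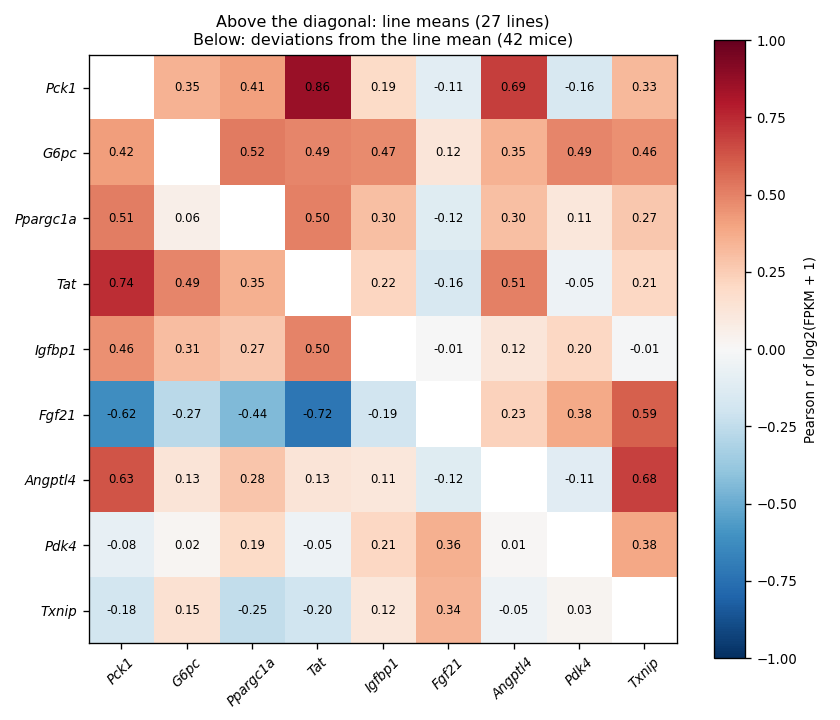
Pearson r of log2(FPKM + 1) for each pair of the 9 genes, for line means (27 lines, above the diagonal) and for deviations from the line mean (42 mice, below the diagonal). Pck1 and Tat are at 0.86 and 0.74, Angptl4 and Txnip at 0.68 among lines, and Fgf21 and Tat at -0.72 among mates.

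Within lines, each gene was fitted on the log2 CPM of a member with line as a term, so that slopes rest on mates alone. A slope is the log2 change of a gene's CPM per log2 unit of the member. With Tat, 31 of 15248 genes were called (0.203%), 26 higher (0.171%) and 5 lower (0.0328%). Among members, Pck1 rose with Tat, at a slope of 0.611 ± 0.121 (SE), adjusted p = 0.0263. Fgf21 fell with Tat, at a slope of -1.71 ± 0.306 (SE), adjusted p = 0.00991. The call for Fgf21 rested on IL-785 and on leaving out the doubtful lines: the slope was -1.45 without IL-785 (adjusted p = 0.136) and -1.67 with IL-1052 and IL-2750 included (adjusted p = 0.111). Pck1 on Tat had a slope of 0.426 and an adjusted p of 0.145 without IL-785.

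The gene most like Tat among mates was Klf15, a glucocorticoid-induced factor of amino acid breakdown and gluconeogenesis, with r = 0.881 over 42 mice. In IL-785 Klf15 had 70.5, 32.1 and 71.0 FPKM where Tat had 1061, 294 and 761 FPKM, so both were lowest in the same mouse. Its slope on Tat was 0.516 ± 0.059 (SE), adjusted p = 5.25e-05, and it stayed called without IL-785 and IL-3912 (0.488, adjusted p = 0.00731). Sds, serine dehydratase, rose with Tat at a slope of 0.853 (adjusted p = 0.007), and Got1, aspartate aminotransferase, at 0.832 (adjusted p = 0.0205). Tsc22d3, a glucocorticoid-induced regulator also called GILZ, rose at a slope of 0.834 (adjusted p = 0.0164). Arg1, the arginase of the urea cycle, chosen after its values were seen, rose at 0.406 (adjusted p = 0.00765). Without IL-785 alone the adjusted p-values of Sds, Got1 and Tsc22d3 were 0.0527, 0.0903 and 0.0728. Without IL-785 and IL-3912 they were 0.0691, 0.0843 and 0.0691, with slopes of 0.831, 0.877 and 0.886. Of the 22 genes of gluconeogenesis and its signalling, these 2, Sds and Got1, were called, and the list's median slope on Tat was 0.0992, beside -0.000125 over all genes. All 21 genes of PPAR-alpha fatty acid oxidation and ketogenesis had a negative slope on Tat (median -0.216), and none was called. These 21 slopes come from the same mice and are not independent of each other. None of the 4 enzymes of tyrosine breakdown after Tat was called.

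**Figure D4:**
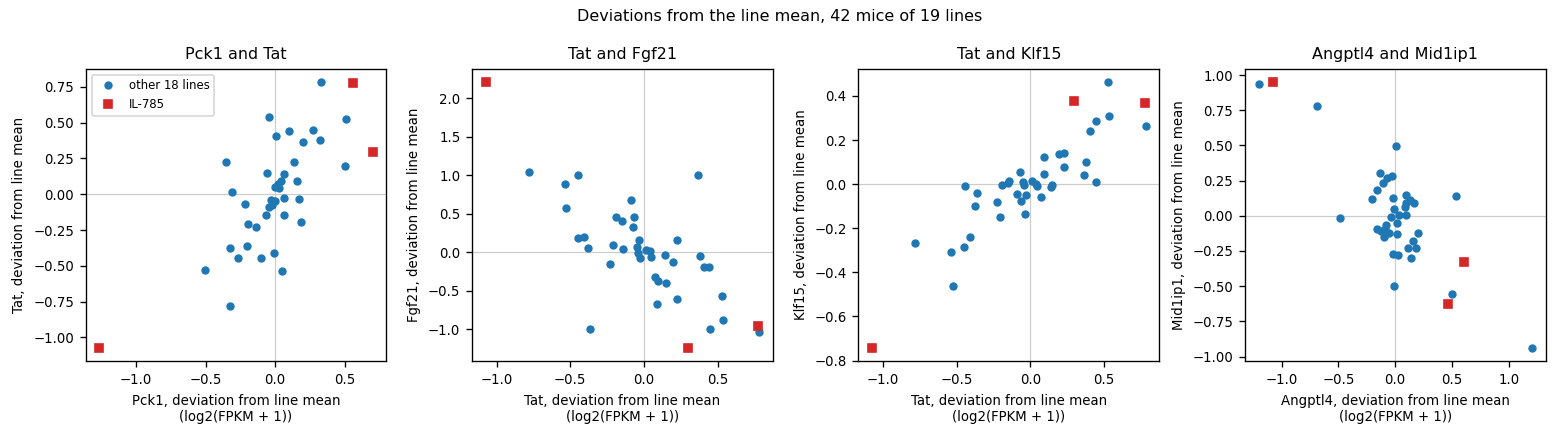
Deviations from the line mean of log2(FPKM + 1) for 4 pairs of genes in 42 mice of 19 lines, with the 3 mice of IL-785 as red squares. Tat rose with Pck1 (r = 0.74) and Klf15 with Tat (r = 0.881), while Fgf21 fell with Tat (r = -0.724) and Mid1ip1 with Angptl4 (r = -0.798). A single mouse of IL-785 lies far out in each panel, and the IL-3575 mates also lie far out for Angptl4 and Mid1ip1.

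Fgf21 as the predictor gave 4 called genes (0.0262%), all lower with higher Fgf21. They were Klf15 (slope -0.197, adjusted p = 0.0179), Arl4d (-0.514, adjusted p = 0.0103), Tsc22d3 (-0.356, adjusted p = 0.047) and Ddit4 (-0.436, adjusted p = 0.0103), the last named because the list is short. Klf15 and Arl4d were also the genes most opposed to Fgf21 among 10313 genes compared (r = -0.805 and -0.78). Without IL-785 none of the 4 was called, and their adjusted p-values lay between 0.0607 and 0.18. With IL-1052 and IL-2750 included, Ddit4 alone of the 4 was called (adjusted p = 0.00754). With depth as a covariate the calls for Klf15 and Tsc22d3 were lost (adjusted p = 0.0838 and 0.147). With Pck1, 9 genes were called (0.059%), 7 higher (0.0459%) and 2 lower (0.0131%), among them Tat at a slope of 0.894 ± 0.169 (adjusted p = 0.0334), Klf15 at 0.558 (adjusted p = 0.00952) and the mitochondrial carrier gene Mcart1 at 0.666 (adjusted p = 0.00952). Without IL-785 the slope of Tat on Pck1 was 0.95, with an adjusted p of 0.448, and the call was lost in 4 of 19 fits that left out a line and with depth as a covariate (adjusted p = 0.071). Klf15 and Mcart1 were not called with Pck1 without IL-785 either (adjusted p = 0.474 and 0.409). No gene was called with Pck1 without both IL-785 and IL-3912.

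The other members moved with few genes among mates. Angptl4 was opposed by Mid1ip1, a stimulator of fatty acid synthesis, at a slope of -0.713 ± 0.112 (adjusted p = 0.0168), 1 of 2 genes called (0.0131%, or 0.00656% in each direction). In IL-785 Mid1ip1 had 13.1, 33.2 and 10.5 FPKM where Angptl4 had 76.3, 23.1 and 69.1 FPKM. In IL-3575 Mid1ip1 had 11.5 and 44.9 FPKM where Angptl4 had 31.8 and 5.19 FPKM, the last in the mouse with pancreas markers. The pair was not fitted without IL-3575. Without IL-785 and IL-3912 the slope was -0.685, with an adjusted p of 0.181. Igfbp1 was matched by Irf2bp2, a transcriptional cofactor, at 0.334 ± 0.0521 (adjusted p = 0.0138), the single gene called (0.00656%), and without those lines its slope was 0.284, with an adjusted p of 0.248. Pdk4 gave 3 calls (0.0197%), which were Xist and the muscle genes Myh2 and Atp2a1. They were not called without IL-785, the line in which muscle RNA and Xist were unevenly spread over mates. G6pc, Ppargc1a and Txnip gave 0 calls in edgeR, with 589, 528 and 715 genes at an unadjusted p under 0.05, while DESeq2 called 2, 10 and 2 genes.

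Across lines, counts were summed per line and fitted on the log2 CPM of a member over 27 lines. Pck1 and Tat again moved together. Tat rose with Pck1 at a slope of 0.955 ± 0.119 (SE), adjusted p = 6.3e-05, among 44 of 12805 genes called (0.344%), 28 higher (0.219%) and 16 lower (0.125%). Pck1 rose with Tat at 0.768 ± 0.105, adjusted p = 0.000183, among 69 genes called (0.539%), 42 higher (0.328%) and 27 lower (0.211%). Both slopes kept their call without any of the 27 lines, with adjusted p at most 0.000764 and 0.00119. Both genes were low in IL-3438, IL-4457, IL-2011, IL-3575 and IL-557, and both were high in IL-2680, IL-3348, IL-219 and IL-1513. Of these, IL-3438, IL-2011 and IL-3575 were lines of mice numbered 4274 to 4300, and IL-2680, IL-3348 and IL-219 of mice numbered 4235 to 4241. Mice numbered 4235 to 4247 had 825 to 1536 FPKM of Pck1 and 266 to 1514 FPKM of Tat. Leaving out 1 line at a time does not remove such a run, and no fit left out the lines of mice 4235 to 4247 together.

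Klf15 led both fits, at a slope of 0.681 ± 0.0735 on Pck1 (adjusted p = 6.86e-06) and of 0.626 ± 0.0694 on Tat (adjusted p = 1.19e-05). Tsc22d3 rose with both, at 0.698 (adjusted p = 0.0103) and 0.658 (adjusted p = 0.00301). Foxo3, a FoxO factor that insulin restrains, rose with Pck1 at 0.526 (adjusted p = 0.00656) and with Tat at 0.45 (adjusted p = 0.0191), and Foxo1 rose with Tat at 0.334 (adjusted p = 0.0285). Without IL-1513 the adjusted p-values of Foxo3 and Foxo1 with Tat were 0.0542 and 0.15. Without the 5 lines of mice numbered 4274 to 4300 they were 0.151 for both, and that of Foxo3 with Pck1 was 0.112. Of 22 genes of gluconeogenesis and its signalling, 1 was called with Pck1 and 2 with Tat, and 20 had a positive slope in each fit. Of 12 glucocorticoid targets tested, 1 was called with each. Angptl4 rose with Pck1 at 0.728 ± 0.142 (adjusted p = 0.013), and this call held without any single line, with adjusted p at most 0.0435. In the reverse fit, Pck1 rose with Angptl4 at 0.56 ± 0.122 (adjusted p = 0.0387). That call was lost without IL-3912 (adjusted p = 0.0891). It was also lost without the lines of mice numbered 4264 to 4272 (adjusted p = 0.0664) or 4274 to 4300 (adjusted p = 0.147).

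G6pc and Ppargc1a across lines turned on IL-1513. Irs2, an insulin receptor substrate that rises when insulin is low, increased with G6pc at a slope of 0.788 ± 0.143 (adjusted p = 0.0163) and with Ppargc1a at 1.16 ± 0.23 (adjusted p = 0.0284). The IL-1513 mice had 7.78 and 16.0 FPKM of Irs2, beside a median of 1.32 FPKM over all mice. In the same mice Ppp1r3g, a glycogen-targeting subunit of protein phosphatase 1 that was chosen after its values were seen, had 138 and 98.6 FPKM, beside a median of 0.23 FPKM. There were 14 called genes for G6pc, 12 higher (0.0937%) and 2 lower (0.0156%), and 14 for Ppargc1a, all higher (0.109%). With the line included, 930 genes had an unadjusted p under 0.05 for Ppargc1a and DESeq2 called 34. Without IL-1513 edgeR called 1 gene for G6pc and 0 for Ppargc1a, and the slope of Irs2 on G6pc was 0.468, with an adjusted p of 0.477. Irs2 was also not called with G6pc without the lines of mice numbered 4274 to 4300 (adjusted p = 0.0672), nor with Ppargc1a without those of mice 4264 to 4272 (adjusted p = 0.0675). IL-1513 thus held the highest line means of G6pc, Ppargc1a, Igfbp1 and Tat, in both of its mice, whereas its Pck1 level, 1001 FPKM in each mouse, was not the highest.

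Igfbp1 moved with far more genes than any other member. Across lines, 1513 of 12805 genes were called (11.8%), 908 higher (7.09%) and 605 lower (4.72%) with higher Igfbp1. Immediate early genes, which cells transcribe within minutes of a stimulus, rose with it, and 7 of the 9 tested were called, all higher. Their median slope was 0.579, beside -0.000659 over all genes. Atf3, a stress-induced transcription factor, had a slope of 1.13 ± 0.145 (adjusted p = 1.93e-05). Btg2, an antiproliferative gene, had 1.05 ± 0.16 (adjusted p = 0.000107), Ier3 0.579 ± 0.0871 (adjusted p = 9.59e-05) and Egr1 1.2 ± 0.217 (adjusted p = 0.00068). Irf2bp2 led the fit, at 0.357 ± 0.0307 (adjusted p = 4.27e-08). The count of immediate early genes called was between 6 and 8 when any of the 27 lines was left out.

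Of the gluconeogenic and signalling genes, 6 of 22 were called with Igfbp1, 5 higher and 1 lower. Nr4a1, an orphan receptor induced by glucagon, rose at a slope of 1.08 ± 0.191 (adjusted p = 0.00056), Got1 at 0.261 (adjusted p = 0.00263), Irs2 at 0.31 (adjusted p = 0.012) and Foxo3 at 0.16 (adjusted p = 0.0241). G6pc was the only member called with Igfbp1, at 0.291 ± 0.0688 (adjusted p = 0.00636), and without IL-1513 its slope was 0.2, with an adjusted p of 0.108. Irs2 and Foxo3 also lost their call without IL-1513 (adjusted p = 0.489 and 0.0683), and all 3 did without the lines of mice numbered 4274 to 4300 (0.0523 for G6pc, 0.0501 for Irs2 and 0.153 for Foxo3). Epcam, a cholangiocyte marker, rose at 0.404 (adjusted p = 0.00264), but at 0.141 without IL-4457 (adjusted p = 0.173). It was the 1 called of 5 cholangiocyte markers, and 1 of 5 endothelial and 1 of 6 hepatocyte markers were also called. The part of cell composition in this result was not tested.

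The high values of Igfbp1 were clustered by mouse number, which the labels give. The 8 mice numbered 4264 to 4272, of IL-4141, IL-4457, IL-519, IL-521 and IL-785, had 87.2 to 429 FPKM of Igfbp1 with a median of 228 FPKM, beside a median of 26.6 FPKM in the other 47 mice. They also had 26.5 to 215 FPKM of Egr1, beside a median of 1.92 FPKM in the others, and 1.84 to 48.5 FPKM of Atf3, beside 0.49 FPKM. Of these lines, IL-785 alone also had mice outside the run, with 28.1 and 101 FPKM of Igfbp1 beside 191 FPKM in its mouse 1. For the others a difference of line and one of handling or collection cannot be told apart. Without these 5 lines, 6 of the immediate early genes were still called over the remaining 22 lines, and 572 genes in all. The slopes were then 0.903 for Atf3 (adjusted p = 4.51e-05), 0.832 for Btg2 (adjusted p = 7.58e-06) and 0.926 for Egr1 (adjusted p = 0.000683). High Igfbp1 and high early genes also went together in the IL-2126 mouse, with 37.5 FPKM of Atf3 and 157 FPKM of Egr1. IL-2126 and IL-1513 stayed in the fit over 22 lines, and no fit left them out along with the 5 lines. The 2 mice with the highest Igfbp1, both of IL-1513, had 3.25 and 3.40 FPKM of Atf3 and 6.69 and 4.86 FPKM of Egr1. These were far below the IL-2126 mouse, but above the medians over all mice, 0.63 and 2.16 FPKM. The IL-1513 mice had 75.2 and 21.3 FPKM of Btg2 and 19.2 and 5.9 FPKM of Fos, beside medians of 2.31 and 0.36 FPKM.

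Pdk4 across lines moved with genes of the circadian clock. Of 16 clock genes tested 7 were called, beside 1.69% of all genes (217 of 12805, 57 higher, 0.445%, and 160 lower, 1.25%). The median slope of the clock genes was -0.184, beside 0.00171 over all genes. Arntl, the clock activator also known as Bmal1, rose with Pdk4 at a slope of 0.923 ± 0.179 (adjusted p = 0.0144). Per3, a clock repressor, fell with Pdk4 at a slope of -0.748 ± 0.136 (adjusted p = 0.0103). The output factors Tef and Dbp, which clock activators drive, fell at -0.442 ± 0.0826 (adjusted p = 0.0117) and -0.812 ± 0.165 (adjusted p = 0.0163). The remaining 3 called were Nfil3, higher, and Cry2 and Gm129, lower, named to complete the count. Of the 7, 2 were thus higher and 5 lower with higher Pdk4. Other members also had sizeable clock slopes. Cry1, a clock repressor, fell with Angptl4 across lines at -0.367 (adjusted p = 0.0387), but not without IL-3912 (adjusted p = 0.0891). With Pck1 the slopes were opposite to those with Pdk4 and not called. They were -0.929 for Arntl (adjusted p = 0.181), 0.837 for Per3 (adjusted p = 0.183) and 0.575 for Tef (adjusted p = 0.0666).

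The count of clock genes called with Pdk4 rested on IL-2146. Its mice had 0.09 and 0.11 FPKM of Pdk4, 0.26 and 0.11 FPKM of Arntl and 140 and 108 FPKM of Dbp. Without IL-2146 none of the clock genes was called and 1 gene was called in all, although the slopes were close in size, at 0.94 for Arntl (adjusted p = 0.133), -0.913 for Dbp (adjusted p = 0.133) and -0.845 for Per3 (adjusted p = 0.0876). Arntl was also clustered by mouse number. The 11 mice numbered 4274 to 4300, of IL-2011, IL-2156, IL-3438, IL-3575 and IL-72, had 2.86 to 8.39 FPKM of Arntl and 1.22 to 6.59 FPKM of Pdk4, beside medians of 1.6 and 1.17 FPKM in the other 44 mice. Their Dbp was between 0.5 and 27.8 FPKM, beside a median of 30.4 FPKM. The same 11 mice had a median of 279 FPKM of Pck1, beside 812 FPKM. Without these 5 lines, 3 clock genes were called with Pdk4, among them Dbp and Per3 but not Arntl (adjusted p = 0.0855), and Tat still rose with Pck1 at 1.12 ± 0.183 (adjusted p = 0.00341). The hour of dissection is not in the labels, and its part was not tested.

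**Figure D5:**
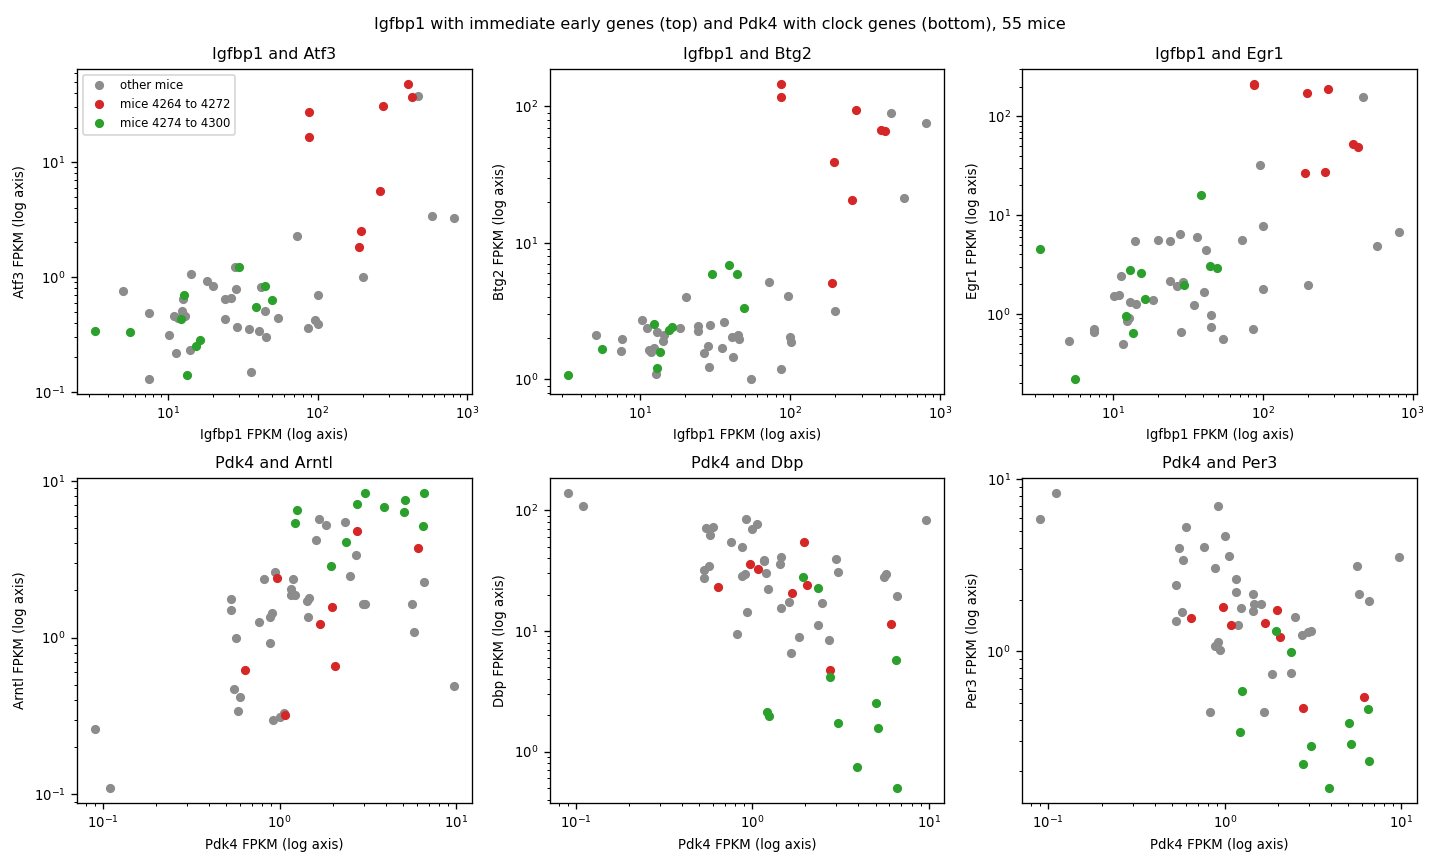
FPKM of 3 immediate early genes against Igfbp1 (top) and of 3 clock genes against Pdk4 (bottom) in 55 mice, both axes logarithmic. Mice numbered 4264 to 4272 (red) had 87.2 to 429 FPKM of Igfbp1 and high early genes, and mice numbered 4274 to 4300 (green) had 2.86 to 8.39 FPKM of Arntl. The 2 points at the far left of the lower panels are the IL-2146 mice.

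Across lines, Txnip was tied to Angptl4 and to Fgf21, and IL-3912 was high in all 3 genes. Fgf21 was not called with Angptl4 (slope 0.738, adjusted p = 0.476), nor Angptl4 with Fgf21 (slope 0.0684, adjusted p = 0.834). Txnip rose with Angptl4 at a slope of 0.713 ± 0.133 (adjusted p = 0.0139), and Fgf21 with Txnip at 1.32 ± 0.305 (adjusted p = 0.0446). The call for Fgf21 was lost in 18 of 27 fits that left out a line. The genes that led the fits on Txnip (36 higher, 0.281%, and 20 lower, 0.156%) and Fgf21 (21 higher, 0.164%, and 2 lower, 0.0156%) were genes of muscle, such as the marker Mylpf, at slopes of 1.68 and 0.922 (adjusted p = 0.000137 and 0.000104). Mylpf was also called with Angptl4 (62 called, 0.484%, of which 37 higher, 0.289%, and 25 lower, 0.195%), at a slope of 2.21 (adjusted p = 0.00952). Muscle RNA in mouse 1 of IL-3912 moved with these results. Without IL-3912 the slope of Mylpf was 0.42 on Txnip and 0.659 on Angptl4, neither called. Without IL-3912 and IL-785, no gene was called with Txnip or Fgf21, and Mylpf had slopes of -0.00879 on Txnip and -0.116 on Fgf21. The slope of Txnip on Angptl4 was then 0.568, with an adjusted p of 0.111, and without the lines of mice numbered 4264 to 4272 it was 0.745 (adjusted p = 0.0535). Of 19 genes of glucose and insulin driven lipogenesis tested, none was called with Txnip.

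For Angptl4, 8 genes were called without IL-3912 and IL-785. Fkbp5, a glucocorticoid receptor target and regulator, rose with Angptl4 at a slope of 0.777 ± 0.138 over all 27 lines (adjusted p = 0.00954) and at 0.812 without those lines (adjusted p = 0.0247). Klf15 rose at 0.529 (adjusted p = 0.00954) and at 0.564 (adjusted p = 0.0218). Both calls were lost without the lines of mice numbered 4274 to 4300, at 0.728 for Fkbp5 (adjusted p = 0.147) and 0.525 for Klf15 (adjusted p = 0.141). St3gal5, a ganglioside synthase chosen after its values were seen, had the smallest p with Angptl4, at a slope of 0.672 ± 0.076 (adjusted p = 1.82e-05). High Angptl4 was also clustered by mouse number. Mice numbered 4235 to 4247, of IL-219, IL-2680, IL-3348, IL-3912 and IL-4052, had 75.1 to 116 FPKM of Angptl4. They had 15.0 to 34.6 FPKM of Fkbp5 and 50.7 to 102 FPKM of St3gal5. Medians over all mice were 37.3, 6.56 and 33.2 FPKM. No fit left out these lines together. In them a difference of line and one of handling or collection cannot be told apart. Of 21 genes of PPAR-alpha fatty acid oxidation and ketogenesis, none was called with Angptl4 or with Pdk4, and 1, Cidec, a lipid droplet gene, rose with Igfbp1 at 0.604 (adjusted p = 0.000383), and at 0.327 without the lines of mice numbered 4264 to 4272 (adjusted p = 0.0751).

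Body weight and age were tested because both differed between lines. No member was called for body weight within lines, where 13 of 15249 genes were called higher (0.0853%) and 13 lower (0.0853%), nor for body weight or age across lines, where 11 (0.0859%) and 2 (0.0156%) of 12806 genes were. At the level of transcripts, Fgf21, G6pc and Igfbp1 each had a single annotated isoform. For Pck1 and Tat the main isoform made up a median of 97.2% and 99.5% of expression. For Txnip 2 isoforms shared expression, with medians of 45.1% and 51.2%, and their ICC was -0.134 and 0.031. A minor Txnip isoform, ENSMUST00000090771, had a median of 0.0% and a highest share of 11.5%, with an ICC of 0.688, the highest of the 6 Txnip isoforms. The main isoform of Ppargc1a had a median of 89.6% and a range of 64.0% to 100%, from 75 to 660 fragments per mouse.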

How the data were processed

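Liver polyadenylated RNA of 55 mice was sequenced by the authors in paired-end reads of 50 bases from stranded libraries, aligned to mouse build 37 (mm9, Ensembl 67) with Bowtie 2 and quantified with RSEM version 1.2.18, per the labels and the methods of the study. The deposited expected counts are estimated fragments per gene without normalization. The deposited TPM and FPKM were scaled by RSEM for length and depth, and each isoform's share of its gene was deposited by the authors as a percent. Symbols came from the GENCODE M1 annotation, which named 37205 of 37620 genes.

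Mice were grouped by the line in their labels, and replicate numbers follow accession order. Line mates are separate animals. Levels, ICC and correlations used log2(FPKM + 1). Tests used edgeR version 4.0.16 (R 4.3.3) on expected counts rounded to whole numbers, with TMM, the default expression filter, quasi-likelihood F tests and Benjamini-Hochberg adjustment over all genes, at a threshold of 0.05. DESeq2 version 1.42.0 was an alternative. Predictors were TMM log2 CPM with a prior count of 2. Predictor and response come from the same libraries. Scripts were tested on simulated data: over 12798 genes, 100% of 200 genes with a known slope across lines were recovered, and 7.83% of calls were false. The simulated slopes were all of the same size, with a recovered median of 1.01, in well-counted genes with a fixed dispersion. Recovery of smaller slopes was not tested.

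Members and gene lists were chosen with earlier results of these data known. Named genes were the members, for each member the 3 genes with the highest and the 2 with the lowest r among mates (mean FPKM of at least 1), and up to 4 genes per list with the smallest adjusted p; others are said to be chosen after their values were seen. Alternatives were all lines, DESeq2, other filters, depth as a covariate, other scales and units, and leaving out mice or lines. Alternatives without IL-3912 and IL-785, without the lines of mice 4264 to 4272 or 4274 to 4300, and without each line in turn for fits across lines and for Fgf21 and Tat within lines, were added after seeing the data.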

Additional observations from a re-analysis of the deposited data

How the results depend on the processing

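All 9 members were called among lines in each of the 42 fits without 1 mouse, with 13376 to 13866 genes called in all. The median ICC of the members was 0.609 to 0.741 without 1 mouse, and the median r without 1 line was 0.0651 to 0.182 among mates and 0.247 to 0.332 among lines. Within lines, DESeq2 called 72 genes with Pck1, 2 with G6pc, 10 with Ppargc1a, 51 with Fgf21, 9 with Angptl4, 10 with Pdk4, 2 with Txnip, 16 with Igfbp1, 105 with Tat and 110 with body weight. With IL-1052 and IL-2750 the counts were 1 for Angptl4, 0 for Pdk4, 2 for Igfbp1, 13 for Tat and 12 for body weight. Depth as a covariate gave 1 for Ppargc1a, 1 for Pdk4 and 20 for Tat. No filter on low counts gave 1 for G6pc, 3 for Ppargc1a, 10 for Pdk4 and 2 for Igfbp1. Without IL-3912 and IL-785 there were 0 for Pck1, 1 for Fgf21, 1 for Angptl4, 0 for Pdk4, 0 for Igfbp1 and 11 for Tat. Without 1 line the counts were 4 to 29 for Pck1, 0 to 9 for Fgf21, 0 to 5 for Pdk4, 0 to 1 for Txnip, 0 to 2 for Igfbp1 and 19 to 43 for Tat.

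Across lines, DESeq2 called 167 genes with Pck1, 55 with G6pc, 34 with Ppargc1a, 179 with Angptl4, 660 with Pdk4, 146 with Txnip, 143 with Tat, 26 with body weight and 16 with age. No filter gave 154 for Pck1, 81 for G6pc, 101 for Ppargc1a, 392 for Fgf21, 405 for Angptl4, 500 for Txnip, 140 for Tat, 109 for body weight and 33 for age. With IL-1052 and IL-2750 the counts were 79 for Pck1, 23 for Ppargc1a, 64 for Pdk4 (3 clock genes), 6 for body weight and 1 for age. Without IL-785 they were 13 for Fgf21, 30 for Angptl4, 24 for Txnip and 43 for Tat, and without IL-3912 as well 0 for Fgf21, 8 for Angptl4, 0 for Txnip and 42 for Tat. Without the lines of mice 4264 to 4272 they were 96 for Pck1, 33 for G6pc, 7 for Angptl4 and 572 for Igfbp1. Without the lines of mice 4274 to 4300 they were 71 for Pck1, 8 for G6pc, 5 for Angptl4, 64 for Pdk4 (3 clock genes), 25 for Txnip, 800 for Igfbp1 and 22 for Tat. Without 1 line they were 29 to 148 for Pck1, 1 to 65 for G6pc, 0 to 23 for Ppargc1a, 0 to 28 for Fgf21, 8 to 227 for Angptl4, 1 to 325 for Pdk4 (0 to 8 clock genes), 6 to 64 for Txnip, 794 to 1736 for Igfbp1 (6 to 8 immediate early genes) and 36 to 114 for Tat. The cause was not tested for any of these moves. None of the called slopes between members changed sign, while slopes of muscle genes such as Mylpf changed sign without IL-3912 and IL-785. No paired analysis was possible because each liver came from a separate, untreated mouse, beyond the fits within lines, in which line is the block.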
